A study of Mus musculus with 6 samples.

Results

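The transcriptome of the wild-type germinal vesicle (GV) oocyte is described here from 3 of the 6 single-oocyte arrays of the series, each of which measured 1 cell. The 3 arrays are all those titled wild-type GV oocyte, with none chosen by its values, and no comparison is made with the other group. Each array carried 33012 probes. Detection was set at 3 times the noise or more, from the scanner's ratio of signal to noise, and 7765 probes (23.5%) passed it in all 3 oocytes. The oocytes were wild-type and came from adult females, with no strain, mating or hormone treatment named. The labels place their collection in the oviduct, with hyaluronidase to strip the cumulus cells, and the methods describe that procedure for ovulated metaphase II oocytes. The stage is therefore given as the label states it. Nothing says whether the oocytes came from separate females, so the spread between them holds differences of animal, cell, amplification and array together. Equal masses of cDNA and of labelled cRNA were carried through, so fewer transcripts of a gene and a larger share of other RNA in a cell cannot be told apart.

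A fully grown GV oocyte is arrested in prophase of meiosis, with a large intact nucleus that becomes transcriptionally silent at the end of growth. It holds a store of maternal mRNA, much of it kept dormant with short poly(A) tails, that must serve maturation, fertilization and the start of embryonic development. The oocyte also makes its own coat, the zona pellucida, and sends growth factors to the surrounding granulosa cells. Transcription of the zona genes depends on Figla, a basic helix-loop-helix factor that binds the short sequence known as the E-box.

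The E-box, CANNTG, was therefore looked for in the 250 bases before the start of the zona gene Zp3 and of H1f8, whose signal was the highest of all named genes. Both sequences are from RefSeq in the GRCm38.p6 build, on the plus strand, and the capitals mark each match. Zp3 lies at chr5:135979855-135980104 and H1f8 at chr6:115944681-115944930, both upstream of the gene.
Zp3: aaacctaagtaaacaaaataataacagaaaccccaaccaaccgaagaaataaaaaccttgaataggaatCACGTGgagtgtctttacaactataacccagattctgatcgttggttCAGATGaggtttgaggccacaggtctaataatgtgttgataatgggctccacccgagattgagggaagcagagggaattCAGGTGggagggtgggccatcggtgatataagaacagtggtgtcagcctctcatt
H1f8: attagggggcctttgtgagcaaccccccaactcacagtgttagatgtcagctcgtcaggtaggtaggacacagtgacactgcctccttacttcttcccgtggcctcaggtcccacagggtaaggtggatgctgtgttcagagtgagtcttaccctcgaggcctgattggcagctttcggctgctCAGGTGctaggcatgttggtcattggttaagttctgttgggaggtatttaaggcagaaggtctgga

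The Zp3 sequence held 3 matches, which began 181, 134 and 55 bases before the start, and H1f8 held 1, which began 66 bases before it. The motif reads the same way on both strands, and it is short. It was present before the start of 17848 of 27025 mouse genes (66.0%), and of 53 of the 78 genes among the 100 brightest that the table lists (67.9%, 95% Wilson interval 57.0 to 77.3). Of all 3703 detected genes in the table, 2116 held it (57.1%, 55.5 to 58.7). Promoters of Zp1, Zp2, Gdf9 and Bcl2l10 were not used here.

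Detection differed little between the oocytes. Oocyte 1 had 11334 detected probes, oocyte 2 had 10687 and oocyte 3 had 10650, a mean of 10890 ± 385 (SD, n = 3). A further 2005 probes were detected in 2 oocytes and 5366 in 1, of which 2134 were seen only in oocyte 1, 1648 only in oocyte 2 and 1584 only in oocyte 3. Most probes seen in a single oocyte were close to the limit, with a median signal-to-noise ratio of 4.2 there, and 342 of them reached 10. Probes shared by all oocytes were far from it: the median of their lowest ratio was 23.48. The unscaled median signals of the arrays were 116, 103 and 93.2.

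Of the probes, 14411 carried a single gene symbol, and these stood for 13840 genes. Of the genes, 4452 (32.2%) were detected in all 3 oocytes, each by its brightest detected probe. Levels are given as log2 of the deposited signal after the authors' quantile normalization, which ran from 7.57 to 20.80 in the detected genes with a median of 10.70. Signal depends on the probe as well as on the number of transcripts, so an order of genes is an order of signal, and no ratio is taken between genes. Where several probes of a gene were detected, they lay a median of 2.26 apart. Of 278 genes with several probes and at least 1 detected in all oocytes, 119 had another probe detected in none.

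All 8 genes fixed as oocyte markers were detected in every oocyte, but their signals spread over much of the range of the array. Gdf9, a growth factor that acts on granulosa cells, read 20.38, 20.23 and 20.43 in oocytes 1, 2 and 3 and was the sixth brightest named gene. Nlrp5, a protein of the subcortical maternal complex that the early embryo needs, read 19.81, 19.40 and 19.60. Nobox, a homeobox factor of early follicles, read 18.62, 18.92 and 18.74. These levels were near the top of the array in each cell. Zp3, a zona glycoprotein, read 17.93, 17.70 and 17.79 at rank 64. The other zona gene among the markers, Zp2, read 11.55, 11.34 and 11.43, at rank 1704.

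The remaining markers ranked between 1431 and 1887. Figla read 11.67, 12.29 and 11.66, and oocyte 2 was the highest. Bmp15, the partner of Gdf9 encoded on the X chromosome, read 11.39, 11.61 and 11.23. Kit, the receptor for the Kit ligand of granulosa cells, read 11.72, 10.81 and 10.95, and had the largest spread of the markers (SD 0.49, n = 3). The markers do not themselves separate a GV oocyte from a mature one.

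**Figure D1:**
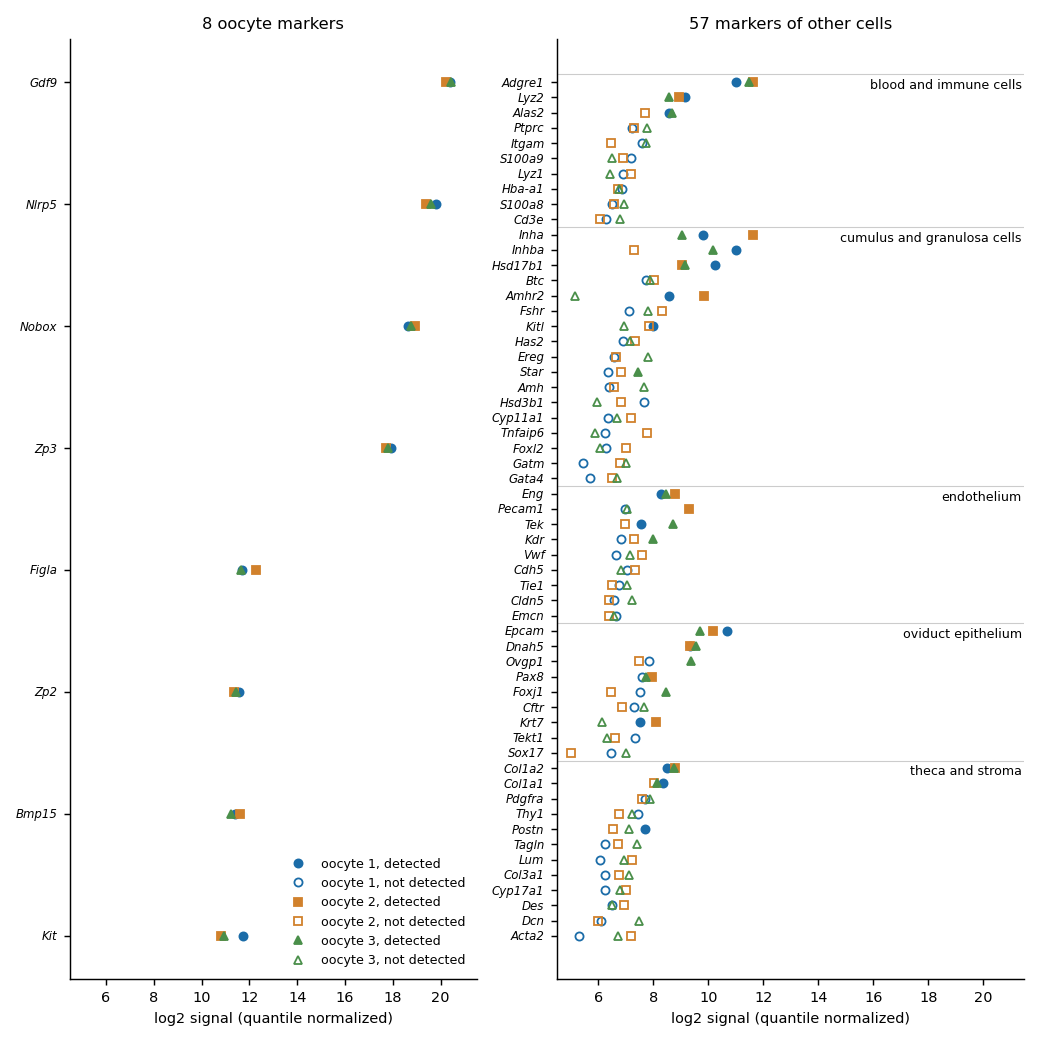
Levels of 8 oocyte markers (left) and 57 markers of other cells (right) in 3 wild-type GV oocytes. The horizontal axes give log2 signal after quantile normalization, each symbol is 1 oocyte, and open symbols were under the detection limit. All oocyte markers were detected in each oocyte. Of the other markers 61.4% were detected in none, beside 45.0% of all named genes.

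Of 57 markers of other cells of the ovary and oviduct, 8 were detected in all 3 oocytes, 7 in 2, 7 in 1 and 35 (61.4%) in none. Of all named genes, 32.2% were detected in all 3 and 45.0% in none. Of 17 cumulus and granulosa cell genes, Inha and Hsd17b1 were detected in every oocyte. Inha, the alpha subunit of inhibin, read 9.81, 11.63 and 9.06, and was thus highest in oocyte 2. Hsd17b1, a steroid dehydrogenase, read 10.25, 9.05 and 9.15. Inhba was detected in oocytes 1 and 3, at 10.99 and 10.18, but read 7.30 in oocyte 2, and Amhr2 was detected in oocytes 1 and 2, at 8.55 and 9.86. Kitl and Star each passed the limit in a single oocyte. The other 11 members, Fshr, Amh, Foxl2, Cyp11a1, Hsd3b1, Has2, Ereg, Btc, Tnfaip6, Gatm and Gata4, were detected in no oocyte. The summed signal of the 17 genes, on the unscaled linear scale, was 10293 in oocyte 1, 9795 in oocyte 2 and 3954 in oocyte 3, on arrays whose median signals were 116, 103 and 93.2. Its largest single part was Inhba in oocytes 1 and 3 and Inha in oocyte 2.

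Of 10 blood and immune cell genes, Adgre1, a macrophage surface receptor, read 11.00, 11.64 and 11.49, and Lyz2 read 9.16, 8.93 and 8.56. Alas2 was detected in 2 oocytes, and the other 7, among them Ptprc, Itgam, Hba-a1 and Cd3e, in none. Summed signal of the 10 genes was 6663, 7544 and 6582, of which Adgre1 alone held 71.2, 84.3 and 80.5%. Of 9 genes of oviduct epithelium, Epcam, an adhesion protein, read 10.67, 10.19 and 9.71 and Dnah5, a dynein of cilia, read 9.34, 9.34 and 9.57. Pax8 and Krt7 were detected in 2 oocytes each, Ovgp1 and Foxj1 in 1, and Cftr, Tekt1 and Sox17 in none. Summed signals were 5418, 3278 and 3363, of which Epcam held 3466, 1737 and 1010. The endothelial gene Eng and the stromal gene Col1a2 were also detected throughout, at means of 8.51 and 8.67, and Tek and Col1a1 in 2 oocytes, Pecam1, Kdr and Postn in 1. Summed signals of the 9 endothelial genes were 1048, 1790 and 1306, and of the 12 theca and stromal genes 1631, 1470 and 1496. Whether these signals came from the oocyte or from other cells was not tested.

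The brightest named genes were in large part genes known from the oocyte. H1f8, the linker histone of the oocyte, read 20.54, 20.93 and 20.93. Bcl2l10, a member of the Bcl2 family, read 20.93, 20.69 and 20.54. Obox1, an oocyte homeobox gene, read 20.69, 20.74 and 20.69. The order of these genes changed from cell to cell, since H1f8 was first in oocytes 2 and 3 and Bcl2l10 in oocyte 1. Zbed3, a zinc finger protein, followed at 20.74, 20.61 and 20.74, and Padi6, a deiminase of the cytoplasmic lattices, at 20.35, 20.54 and 20.38.

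Among the 30 brightest, several others serve meiosis or the maternal store. Pttg1, the securin that holds separase inactive, had a mean of 19.74 ± 0.12, and Btg4, an adaptor of the mRNA deadenylase, 18.94 ± 0.32. Npm2, the nucleoplasmin of the egg, stood at 19.11 ± 0.15 and Zp1 at 19.32 ± 0.14. The homeobox gene Cphx1 was at 18.74 ± 0.19 (SD, n = 3 oocytes for each). The PRAME family members Oog1 and Pramel13 stood at 19.43 ± 0.25 and 19.09 ± 0.11. RNA-binding and regulatory proteins were also present, with Rbpms2 at 19.81 ± 0.25, Esrp1, a splicing regulator, at 19.23 ± 0.05, and Paip2b, an inhibitor of poly(A)-binding protein, at 18.91 ± 0.35.

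Genes with general functions made up much of the remainder. They were the nucleosome-binding protein Hmgn1 (19.71), the autophagy regulator Rubcn (19.40), the ribosomal protein Rps12 (19.37), the chaperonin subunit Cct5 (19.33), the histone gene H3f3a (18.99), the sterol sensor Scap (18.94), the kinase Riok1 (18.85), the lactate dehydrogenase subunit Ldhb (18.71) and the GTPase Arf1 (18.67). Fam241b was at 19.98 and Rhpn2 at 18.92. Olfr1449, annotated as an olfactory receptor, was at 19.90 ± 0.21, in eighth place.

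Neighbours in this order were rarely separable. Of 29 neighbouring pairs, 27 differed by less than the larger of their SDs, and the exceptions were Zbed3 above Padi6 and Gdf9 above Fam241b. The sets themselves were shared: 24 of the 30 brightest genes, 86 of 100 and 424 of 500 were the same in all 3 oocytes. The 30 brightest of the detected probes, whether named or not, held 18.7% of the summed unscaled signal of all detected probes in oocyte 1 and 19.0% in oocyte 2, and the 500 brightest held 66.9 to 68.9% in the 3 oocytes. The SD of these 30 genes had a median of 0.20, from 0.03 in Obox1 to 0.52 in Rhpn2, which read 19.43, 18.38 and 18.93. Quantile normalization gives the brightest probes of each array the same set of values, which limits the spread that can be seen there.

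**Figure D2:**
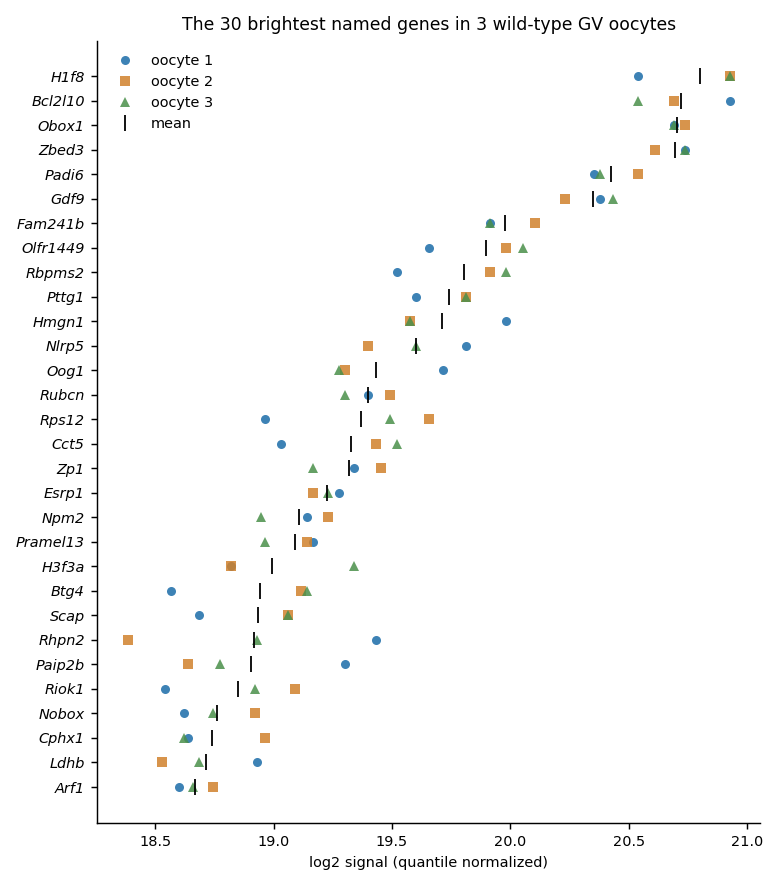
The 30 brightest named genes in wild-type GV oocytes. The horizontal axis gives log2 signal after quantile normalization, symbols are single oocytes and the vertical tick is the mean. The means ran from 20.80 in H1f8 to 18.67 in Arf1, and the oocytes overlapped between most neighbouring genes.

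Hmgn1 and H3f3a depended on the probe. The probes of Hmgn1 read means of 19.71 and 9.57, and those of H3f3a 18.99 and 11.14, all detected in each oocyte. With the mean of the detected probes in place of the brightest, Hmgn1 moved from rank 11 to 413 and H3f3a from 21 to 341. The other 28 genes stayed at rank 32 or better in 12 alternative settings.

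Gene lists were then described by the share of members detected in all 3 oocytes, beside 32.2% of all genes, and by the share among the 500 brightest, beside 3.61% of all genes. Of 33 lists, 30 had a larger share detected than all genes and 27 a larger share among the brightest. The lists were made for the oocyte and for abundant cell functions with these results known, so these counts describe the lists.

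**Figure D3:**
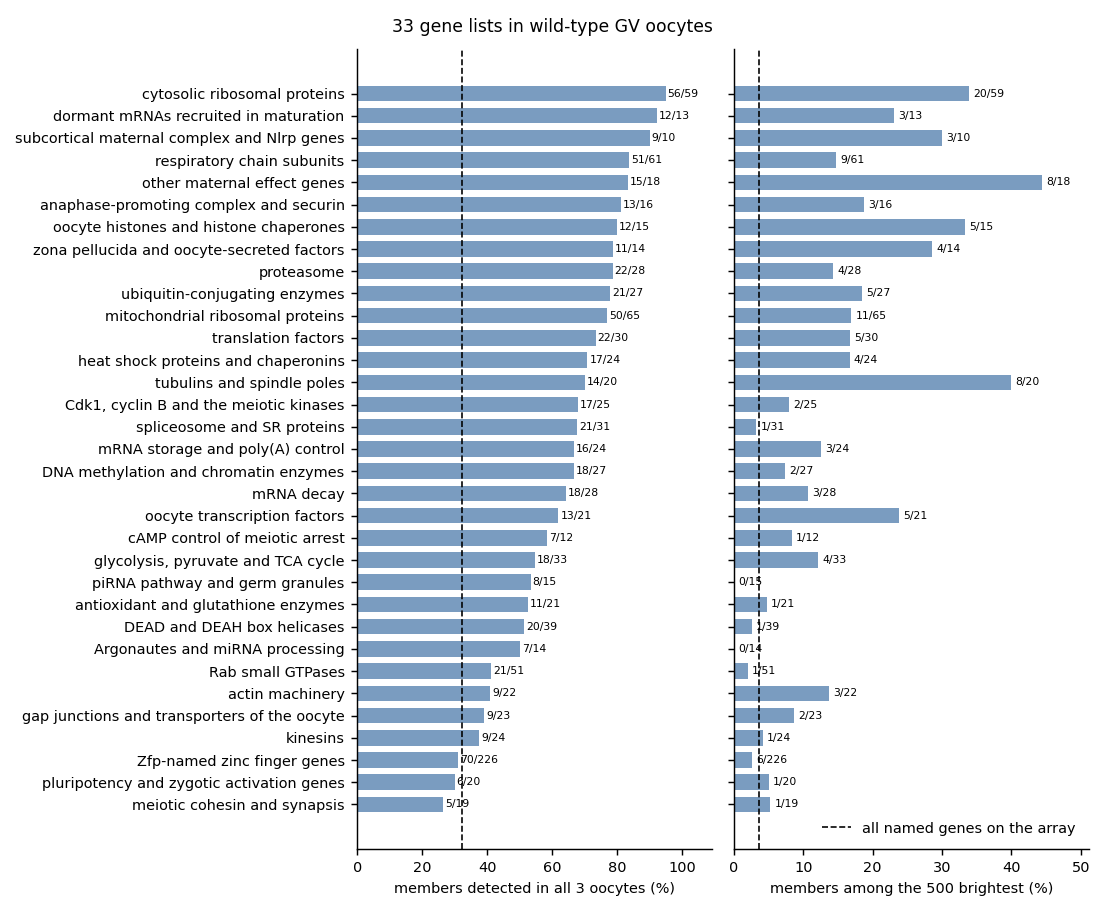
Share of members of 33 gene lists detected in all 3 oocytes (left axis, percent) and among the 500 brightest genes (right axis, percent), with counts of members beside each bar. Dashed lines give all named genes, 32.2% and 3.61%. Cytosolic ribosomal proteins had the highest share detected (56 of 59), and other maternal effect genes the highest share among the brightest (8 of 18).

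Of 14 genes of the zona pellucida and oocyte-secreted factors, 11 were detected and 4 were among the 500 brightest. Oosp1, an oocyte-secreted protein, read 17.76, 16.57 and 16.43, and oocyte 1 was the highest by more than the other two differed. Izumo1r, the egg receptor for sperm, read 9.85, 9.97 and 9.94. Cd9, an egg membrane protein needed for fusion with sperm, passed the limit in 2 oocytes, at a mean of 7.82, and so did Fgf8.

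Some genes whose maternal products the embryo needs were among the brightest, and others had low signals. Of 10 members of the subcortical maternal complex and the Nlrp family, 9 were detected and 3 were among the 500 brightest. Besides Padi6 and Nlrp5 these included Nlrp14, at 18.15, 17.68 and 18.13. Nlrp4a followed at 13.90, 13.84 and 13.30. Tle6, another subunit of the complex, read 9.54, 9.48 and 9.47, a low signal with an SD of 0.03. Of 18 other maternal effect genes, 15 were detected and 8 were among the 500 brightest, the largest share of the 33 lists. Spin1, a spindle protein, read 17.39, 16.03 and 16.45, but its other probes had means of 10.34 and 7.39. The last of these was detected in 1 oocyte. Dppa3, which protects the maternal genome from demethylation, read 16.96, 16.35 and 16.44. Dnmt1 had a mean of 8.55, and Atg5, Pms2 and Smarca4 were not detected in all oocytes.

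The list of oocyte transcription factors held a few bright genes. Of 21 genes on this list, 13 were detected and 5 were among the 100 brightest. These were the homeobox genes Obox1, Nobox and Obox3, and Oog1 and Oog3, which the list held although they belong to the PRAME family and are not known to bind DNA. Obox3 read 18.44, 18.21 and 18.21. Pou5f1, the factor of pluripotent cells, had a mean of 8.64 ± 0.39. Sohlh1, which acts in early follicles, and Sox2 were detected in no oocyte. Of 20 pluripotency and zygotic activation genes, 6 were detected, a share no larger than that of all genes. Dppa2 (14.59 ± 0.15) and Dppa5a (13.53 ± 0.21) were the brightest of them.

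Chromatin proteins were led by histones and their chaperones, with 12 of 15 detected and 5 among the 500 brightest. Nap1l4, a histone chaperone, read 17.53, 17.31 and 17.57, and Anp32b read 17.00, 17.32 and 17.03. Of 27 enzymes of DNA methylation and chromatin, 18 were detected. Ezh2, the methyltransferase of the Polycomb complex, read 15.66, 15.51 and 15.50, and Smarca5, a remodeller, 14.04, 14.50 and 15.00. Dnmt3l, which the oocyte needs to set maternal imprints, read 13.08, 12.74 and 13.11. Dnmt3a, the enzyme that acts with it, was detected in no oocyte.

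Several regulators of anaphase were among the brightest genes. Of 16 genes of the anaphase-promoting complex and securin, 13 were detected and 3 were among the 100 brightest, namely Pttg1, the conjugating enzyme Ube2c (18.33 ± 0.13) and the subunit Anapc4 (17.81 ± 0.11). Fbxo5, the inhibitor known as Emi1, read 14.39, 13.49 and 14.76. Of 25 genes of Cdk1, cyclin B and the meiotic kinases, 17 were detected and 2 were among the 500 brightest. Cks2, a subunit of the Cdk1 complex, read 17.38, 16.70 and 17.23, but its other detected probe had a mean of 10.79. Plk1 read 16.11, 16.34 and 16.06. Mos, the kinase that holds the mature egg in metaphase, read 12.14, 12.28 and 12.37. Cdk1 itself passed the limit in oocyte 1 alone, at 8.41, and Ccnb3 and Wee1 in none.

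Genes that keep the oocyte arrested through cyclic AMP were seen in part. Of 12, 7 were detected, a larger share than the 32.2% of all genes. The brightest were Rgs2, at 15.94, 15.03 and 14.71, and Prkar1a, a regulatory subunit of protein kinase A, at 12.46, 12.85 and 13.68. The deviations of these genes ran in opposite directions between oocytes. Gpr12 was detected at a mean of 10.51, whereas Gpr3, the receptor known for meiotic arrest in the mouse, had a mean of 6.81 and was detected in no oocyte. Of 19 meiotic cohesin and synapsis genes, 5 were detected (26.3%, beside 32.2% of all genes). Syce2, a protein of the synaptonemal complex, was the brightest, at 16.77, 16.52 and 16.63. Rec8, Stag3, Smc1b and Dmc1 were not detected in all 3.

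Tubulin and spindle pole genes were often bright, and kinesins about as often as all genes. Of 20 tubulin and spindle pole genes, 14 were detected and 8 were among the 500 brightest. Tuba1c read 17.87, 18.14 and 18.50, and Tuba4a read 17.33, 17.65 and 17.50. Tpx2, which drives assembly of microtubules around chromosomes, read 15.90, 16.08 and 16.19. Numa1 and Pcnt were detected in no oocyte. Of 22 genes of the actin machinery, 9 were detected. Myo5b, a motor that carries vesicles, led at 18.16, 18.55 and 18.44, followed by Tmsb10 (16.77 ± 0.50) and Actg1, at 16.28, 16.46 and 17.07. The other probe of Actg1 had a mean of 6.75 and was detected in no oocyte. The common reference gene Actb read 8.89, 7.03 and 8.02 and missed the limit in 1 oocyte. Of 24 kinesins, 9 were detected, and Kif23, which acts in cytokinesis, was alone among the 500 brightest, at 14.59, 15.34 and 14.92. Both shares were close to those of all genes, 32.2% and 3.61%.

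Of 13 genes whose mRNAs are known to be stored and recruited during maturation, 12 were detected. Mapre1, a protein of microtubule ends, read 15.65, 15.50 and 16.43, Prc1 read 15.92, 15.28 and 15.36, and Tex19.1 had a mean of 14.11 ± 0.10. Dazl, a germ cell protein that promotes translation, was detected in all oocytes and read 10.17 in oocyte 1 against 8.39 and 8.52 in the others. Ect2 was detected in oocyte 2 alone, at 9.48.

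Of 24 genes of mRNA storage and poly(A) control, 16 were detected. Pabpc4, a poly(A)-binding protein, read 16.86, 17.03 and 16.94, Eif4enif1, which represses translation through Eif4e, read 15.71, 15.04 and 15.82, and Lsm14a read 15.24, 14.48 and 14.12. Cpeb1, which controls dormant mRNAs through their tails, read 11.12, 10.06 and 9.58, and was thus clearly highest in oocyte 1. Pum2 and Pabpc1 passed the limit in 2 oocytes each. Of 28 genes of mRNA decay, 18 were detected. After Btg4 the brightest were the decapping scaffold Edc4 (16.39 ± 0.10) and the exosome nuclease Exosc10 (16.02 ± 0.13). Cnot6l, a deadenylase, missed the limit in oocyte 2, where it read 7.13 against 10.28 and 8.84.

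Neither list of small RNA genes had a member among the 500 brightest, which held 3.61% of all genes. For lists of 14 and 15 genes, a count of none lies close to that share. Of 14 Argonaute and miRNA processing genes, 7 were detected. Dicer1 read 14.41, 14.07 and 14.38, Drosha 13.88, 13.97 and 13.25, and Tnrc6b 12.83, 12.83 and 13.17. Prkra, a partner of Dicer, was detected in oocyte 2 alone. Ago2 passed the limit in oocyte 1 alone, at 7.88, and Ago1 and Ago4 in none. Of 15 genes of the piRNA pathway and germ granules, 8 were detected, led by Nanos1 at 13.15, 12.70 and 12.76 and Tdrd1 at 11.27, 11.31 and 11.64. Piwil1 was detected at a mean of 9.36 and Piwil4 in no oocyte.

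Ribosomal protein genes were the most completely detected list. Of 59 cytosolic members, 56 were detected, 20 were among the 500 brightest and 6 among the 100 brightest. Rpl35 read 17.73, 18.29 and 17.89, Rpl32 read 17.72, 17.80 and 17.72, and Rpl26 read 17.51, 17.59 and 17.36. Of the detected members, 33 (58.9%) were highest in oocyte 2, beside 31.0% of all detected genes. Rpsa was detected in no oocyte, and near-identical copies of such genes may share signal. Of 65 mitochondrial ribosomal genes, 50 were detected, with Mrps25 (17.00 ± 0.22) the brightest, and of 61 subunits of the respiratory chain 51, with Atp5g1 the brightest at 15.80, 16.51 and 16.15. Of 30 translation factors, 22 were detected, led by Eef1a1 at 18.04 ± 0.03 (13.94 by its other probe) and Eif4a3 at 17.96 ± 0.13. Eif4a1, its close relative, was detected in no oocyte.

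The oocyte is known to use pyruvate more than glucose. Ldhb, of lactate dehydrogenase, read 18.93, 18.53 and 18.68, and Ldha, the other main subunit, was detected too, at 10.95, 11.67 and 10.56. Of 33 genes of glycolysis, pyruvate and the tricarboxylic acid cycle, 18 were detected. The next brightest were the cycle enzymes Cs (17.25 ± 0.11) and Mdh2 (17.04 ± 0.19). Of the glycolytic genes, Gapdh was detected at 13.93, 14.69 and 14.34 and Pfkp at a mean of 10.75, and Hk1, Pfkm, Pgk1 and Tpi1 were detected in no oocyte. Idh1 and Idh2, the isocitrate dehydrogenases that use NADP, were detected in none either. Of 21 antioxidant genes, 11 were detected, led by Sod1 at 16.69, 16.60 and 16.70. Mt1, a metallothionein, varied most of them, at 9.94, 11.21 and 8.39.

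Protein folding and turnover were also well covered. Of 24 heat shock and chaperonin genes, 17 were detected, and Cct3 (18.42 ± 0.23) followed Cct5. Of 28 proteasome genes 22 were detected, led by Psmc2 (16.31 ± 0.09), and of 27 ubiquitin-conjugating enzymes 21, with Ube2k (17.22 ± 0.12) after Ube2c. Ube2d3 read 17.13, 15.58 and 16.37 and differed more between the oocytes. Of 31 spliceosome genes, 21 were detected and Snrpd2 alone was among the 500 brightest, a share close to the 3.61% of all genes. Snrpd2 read 14.15, 14.98 and 14.22. Of 39 helicases of the DEAD and DEAH families, 20 were detected, and Ddx28, a mitochondrial member, was the brightest at 17.63 ± 0.12.

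Of 51 Rab GTPases, 21 were detected, and Rab2a (15.26 ± 0.54) was the brightest. Of 226 genes with Zfp symbols, 70 (31.0%) were detected, a share close to that of all genes, and 6 were among the 500 brightest, with Zfp296 at 17.91 ± 0.28. Of 23 gap junction and transporter genes, 9 were detected. The zinc importers Slc39a6 and Slc39a10 were the brightest, at 15.88, 14.98 and 15.00 and at 15.03, 13.94 and 14.39, and both were highest in oocyte 1. Gja4, the connexin of the oocyte side of the junction, read 9.96, 8.91 and 9.11, and Gja1, the connexin of granulosa cells, was detected in no oocyte.

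The spread between oocytes was measured first over the probes detected in all of them. The SD over the 3 oocytes had a median of 0.276 on the log2 scale across the 7765 detected probes, with 0.0713 at the 5th and 0.773 at the 95th percentile. Without the detection filter, over all 33012 probes, the median SD was 0.427. In 1259 of the detected probes (16.2%) the highest and lowest oocyte lay more than 1 apart, and in 95 (1.22%) more than 2. The median SD was 0.302 in the 1553 detected probes with the lowest levels and 0.256 in the 1553 with the highest. With 3 oocytes, the 95% interval of a single SD runs from 0.521 to 6.28 times its value, so single genes cannot be ordered closely by it.

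Oocyte 1 stood slightly apart from the others. Across detected probes the oocytes correlated at 0.968 (oocytes 1 and 2), 0.968 (1 and 3) and 0.977 (2 and 3, Pearson's r across probes, which are not independent). Oocyte 1 was the farthest from the median of the 3 in 41.3% of detected probes, against 30.4% for oocyte 2 and 28.3% for oocyte 3. Among the probes with a range over 1 its share was 47.9%. Oocyte 1 also had the most detected probes and the highest unscaled median signal.

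**Figure D4:**
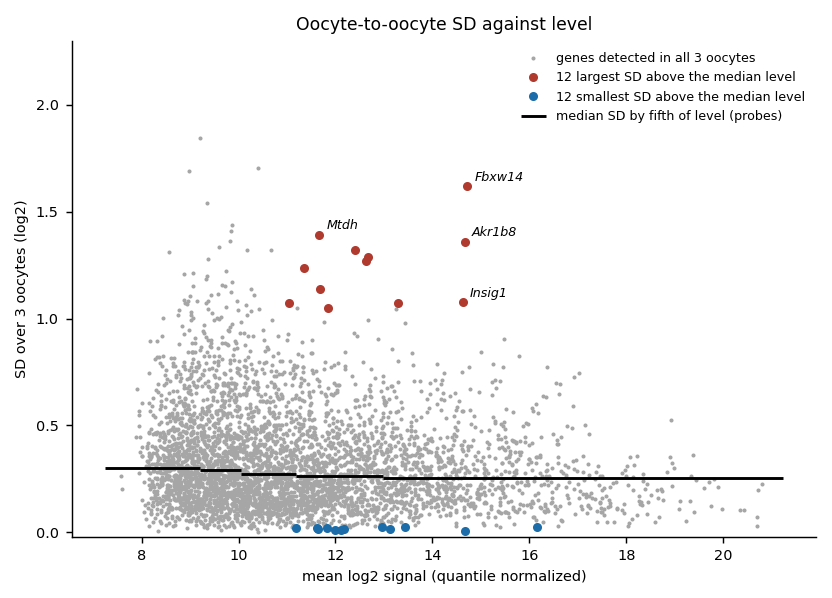
SD over 3 oocytes (vertical axis, log2) against mean log2 signal (horizontal axis) for named genes detected in all 3 wild-type GV oocytes. Red and blue points are the 12 genes with the largest and the smallest SD above the median level, and black lines are the median SD of all detected probes in 5 groups of 1553 by level. The median was 0.302 in the group of lowest level and 0.256 in the group of highest level.

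Among the 2226 genes above the median level, 14 had an SD over 1 with the authors' normalization, and 24 to 42 under other scalings. Fbxw14, of a family of F-box genes transcribed in the oocyte, varied most and read 16.14, 15.06 and 12.96. Mtdh read 10.66, 13.25 and 11.08, and was highest in oocyte 2. Akr1b8, an aldo-keto reductase, read 13.10 in oocyte 1 and 15.46 and 15.44 in the others. The odd oocyte was thus a different one in these genes.

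Insig1, which retains the sterol sensor Scap in the endoplasmic reticulum, read 15.84, 13.79 and 14.24. Hoxd9 read 13.20, 13.12 and 10.87, and was low in oocyte 3 alone. Srsf2, a splicing factor, read 14.48, 12.96 and 12.42. The other genes among the 12 with the largest SD were Med19, Bop1, Tmem37, Ube2d2a, Polr2k and Elovl5, with SDs of 1.29, 1.27, 1.23, 1.14, 1.07 and 1.05. The lowest signal-to-noise ratio of the 12 in any oocyte was 18.97, in Tmem37, far from the detection limit.

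At the other end, the smallest SD was that of Dnal4, a dynein light chain, which read 14.68, 14.66 and 14.67. Akap8, Nol4l, Jag2, Tex264, Map4, Arl14ep, Rab3a, Limd1, Gstm5, Zfp90 and Ctps also had SDs between 0.01 and 0.02. Ctps, which makes cytidine triphosphate, was the brightest of them, at 16.12, 16.16 and 16.16. The wide interval of an SD over 3 oocytes applies to each of these.

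In families of oocyte genes with many related copies, oocyte 1 was often the highest, as it was in some of the other lists. Of 14 Fbxw genes, 11 were detected and 7 were among the 500 brightest. These 7 were Fbxw13, Fbxw14, Fbxw15, Fbxw16, Fbxw19, Fbxw20 and Fbxw21, and each was highest in oocyte 1 and lowest in oocyte 3, by 0.56 to 3.19. Fbxw19 read 18.55, 18.25 and 17.84, Fbxw15 read 17.65, 17.36 and 17.08, and Fbxw13 read 15.56, 14.67 and 14.02. The other 4 detected members differed between the same oocytes by -0.30 to 0.48.

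**Figure D5:**
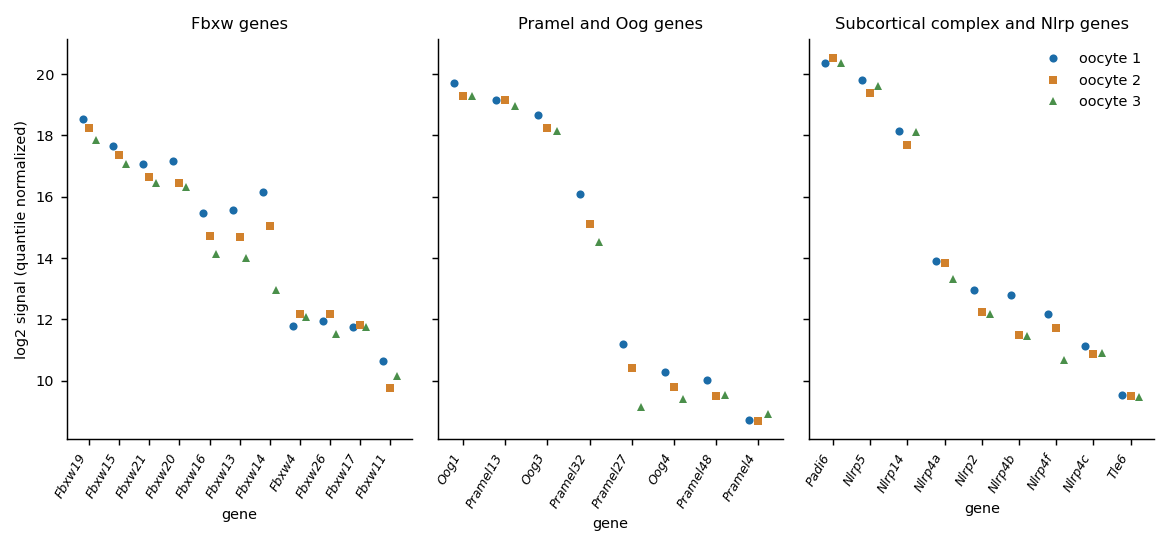
Levels of the detected Fbxw genes, Pramel and Oog genes, and subcortical maternal complex and Nlrp genes (horizontal axes, genes) in 3 wild-type GV oocytes (vertical axis, log2 signal after quantile normalization). Each symbol is 1 oocyte. Oocyte 1 was the highest in 8 of 11, 7 of 8 and 8 of 9 of these genes. The Fbxw list and the Pramel and Oog list were made after the values were seen.

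Of 13 Pramel and Oog genes, 8 were detected, and 7 of these were highest in oocyte 1. Pramel32 read 16.09, 15.12 and 14.52, and Pramel27 read 11.19, 10.41 and 9.14. Of the 9 detected genes of the subcortical maternal complex and Nlrp family, 8 were highest in oocyte 1, with Nlrp4b at 12.80, 11.47 and 11.45 and Nlrp4f at 12.16, 11.71 and 10.67. The Obox and Tcl1 families were divided. Obox1, Tcl1 and Tcl1b5 were highest in oocyte 2, and their other members detected in all oocytes were highest in oocyte 1. A higher oocyte 1 was not peculiar to these families. For detected members, the median deviation of oocyte 1 from the gene's mean was 0.35 in Fbxw and 0.33 in Pramel and Oog genes. It was 0.21 in the subcortical complex and Nlrp genes, 0.29 in heat shock and chaperonin genes and 0.23 in stored mRNAs. Other lists went the other way, with -0.23 in the actin machinery and -0.14 in tubulin and spindle pole genes. Over all 4452 detected genes, oocyte 1 was the highest in 37.1%, and the order from oocyte 1 to oocyte 3 seen in the 7 Fbxw genes held for 18.3%. Members of such families are alike in sequence, so that a probe may read more than 1 of them, and they are not independent of each other. The part of the higher signal and detection on the array of oocyte 1 in this was not tested.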

How the data were processed

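RNA of single oocytes was amplified, labelled and hybridized by the authors to Applied Biosystems mouse arrays, 1 oocyte per array. The deposited signal intensity is the scanner's, unscaled between arrays, and each spot also has a deposited score, the signal-to-noise ratio, and a flag code of unstated meaning. The authors also deposited log2 values, quantile normalized over the 6 arrays of the series, and these are the levels used. For the 3 oocytes these equalled the values of the deposited series table, apart from 1463 empty cells there at flag codes of 5000 or more. The name of the scanner software was not stated.

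Of the probes, 14411 had 1 symbol in the platform annotation, 247 had several and 18354 had none. Only the first kind was named. A gene was represented by its brightest probe detected in all 3 oocytes. No test between groups was made. The number of arrays limits the precision. Other scalings were made in R 4.3.3 with limma 3.58.1, and the remainder in Python 3.11.15 with pandas 2.3.3, scipy 1.17.1 and matplotlib 3.10.9. The SD and ranking steps were checked on simulated data.

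The group to describe, the 38 gene lists and the naming rule were chosen with earlier results of these data known. Within the group, all oocytes of that title were used. A further 7 lists (Fbxw, Pramel and Oog, Obox, the Ywha family, Tcl1, olfactory receptors and cholesterol synthesis) were added after the values were seen. Genes named are the 8 markers, the 30 brightest, up to 4 detected and 2 undetected members of each list with the highest means, the 12 largest and 12 smallest SDs above the median level, and detected markers of other cells. Further members of families and lists were named after their values were seen. Alternatives were the scaling, the detection limit, the flag code, each oocyte left out, the probe rule, the size of the bright set and the promoter window.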

Additional observations from a re-analysis of the deposited data

How the results depend on the processing

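The number of probes detected in all oocytes, the brightest genes, the 8 markers and the markers of other cells changed by no more than 1.5 times under every alternative run for them. Of the 100 brightest genes, 96 to 100 were the same in each setting. The SD and the number of probes seen in a single oocyte moved. The median SD of 0.276 became 0.333 with quantile normalization of the 3 arrays alone, 0.334 with cyclic loess, 0.34 with arrays centred on their median and 0.378 with no scaling. The detected levels themselves were spread less widely after the authors' normalization over 6 arrays (SD over probes 2.32) than after that of the 3 arrays alone (2.59). With no detection filter the median was 0.427. Leaving out 1 oocyte gave 0.196 (without oocyte 1) to 0.254. These SDs rest on 1 oocyte fewer, so they cannot be set directly against the SD over 3. Of the 12 most variable genes, 8 to 10 were kept under other scalings. With detection at 5 times the noise, probes detected in a single oocyte fell from 5366 to 2893. The 33 lists held 126 genes among the 500 brightest and 231 among the 1000 brightest. The E-box share of all promoters was 34.3% in 100 bases before the start and 69.3% with any start site of the gene, an alternative chosen after seeing the data. Over the scalings, 7 to 9 Fbxw genes were highest in oocyte 1 and lowest in oocyte 3, and oocyte 1 was the highest in 8 to 10 Fbxw, 7 to 8 Pramel and Oog, and 7 to 8 subcortical complex and Nlrp genes. With no scaling it was also the highest in 59.2% of all detected genes. No paired analysis was possible because a single group was described and no test was made. Without replicated probes of most genes, the choice of probe could not be checked for them.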

Other observations

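Sterol synthesis and its control, a list made after the values were seen, held bright genes in the wild-type GV oocyte. Of 17 members, 12 were detected and 5 were among the 500 brightest. Scap, the sterol sensor, read 18.68, 19.06 and 19.06, and Hmgcs1, an early enzyme of the pathway, read 18.10, 18.19 and 18.07. Fdft1, which makes squalene, read 15.40, 15.58 and 15.55, and Srebf1, a factor that Scap escorts, read 14.57, 14.24 and 14.47. Insig1 differed between the oocytes by far more than these. Of the later steps, Hsd17b7 read 14.44, 13.73 and 14.07, and Sc5d and Tm7sf2 were detected too, at means of 10.93 and 10.41. Msmo1 was detected in 2 oocytes, Dhcr7 in 1, and Cyp51 and Ebp in none.

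Olfactory receptor genes were mostly undetected, with 41 of 738 (5.56%) detected in all oocytes, 123 in 1 and 551 in none. Olfr1449 and Olfr102 were the exceptions in brightness, the latter at 14.94, 15.06 and 15.90. The Ywha family of phosphoprotein-binding adaptors was uneven, with Ywhae at 18.53, 18.61 and 18.61, Ywhaz at 18.50, 18.68 and 18.33, and Ywhab at 9.73, 9.93 and 9.41. The other probes of Ywhaz had means of 15.88 and 7.39, the latter detected in 1 oocyte. Of 5 Tcl1 genes, 4 were detected, none of them above a mean of 9.28. Obox2 read 12.46, 12.02 and 12.03, and Obox6 was detected in no oocyte.

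Some genes had a high signal-to-noise ratio in part of the oocytes and were under the limit in the others. Those named here were picked for high ratios from 2168 genes detected in 1 oocyte and 987 detected in 2. Whether the difference lay in the cell, its amplification or the array spot was not tested. Ramp1, a receptor partner, had a signal-to-noise ratio of 59.4 in oocyte 2, at a level of 11.38, and read 7.12 and 6.29 in oocytes 1 and 3. Hsd11b1, a steroid dehydrogenase, read 10.85 in oocyte 3 at a signal-to-noise ratio of 43.02, with ratios of -2.94 and 0.2 in the others. Thap2 read 11.38 in oocyte 1 and 6.56 and 8.09 in oocytes 2 and 3, with a ratio of 2.74 in oocyte 3, just under the limit. Slc38a5, an amino acid transporter, read 9.75, 12.55 and 7.65 and was under the limit in oocyte 3.

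Many bright probes could not be named. Of the 100 brightest detected probes 36, and of the 500 brightest 207, carried no single symbol in the annotation, as did 3217 (41.4%) of all detected probes. Over all 33012 probes of the array the share was larger, at 56.3%.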
